A study of Mus musculus with 2 samples.

Results

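Fa2h, Cers4, Acer1, Abca12, Alox12b, Aloxe3 and Sdr9c7 are genes of the skin's barrier lipids, and they made up 7 of the 480 genes on a custom Xenium panel. They were chosen by name, and every decoded transcript of these genes with a quality score of at least 20 was counted. Xenium is an imaging assay in which single RNA molecules are decoded in place in a tissue slice. The series held 1 Utx-cKO section and 1 WT section, each a 5 µm slice of fixed, paraffin-embedded whole skin of B6/129 females. In Utx-cKO mice Kdm6a, also called Utx and coding for a histone demethylase, was deleted by Krt14-Cre in tissues that express keratin 14. Krt14 is active in the basal keratinocytes that give rise to the epidermis, hair follicles and sebaceous glands. Neither the age of the mice nor the skin site or the number of animals per section was given in the sources used here. With 1 section per genotype nothing could be tested between genotypes: each interval below is an exact 95% interval for counting error, and differences are called by a rule of size, a ratio of at least 1.5 either way.

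The outer barrier of the skin rests on ceramides that keratinocytes make as they move from the basal layer through the spinous to the granular layer. Fa2h hydroxylates fatty acids that are built into ceramides, and Cers4 is a ceramide synthase that joins a fatty acid to the sphingoid base. Acer1, an alkaline ceramidase, cleaves ceramides again. Abca12 is the transporter that loads glucosylated ceramides into lamellar granules, and its loss causes harlequin ichthyosis in humans. Alox12b and Aloxe3 are epidermal lipoxygenases that act in sequence on the linoleate of these ceramides, and Sdr9c7 is a dehydrogenase that oxidises their product, a step needed to bind ceramides to the cornified envelope. Sebocytes, the cells of the sebaceous gland, make sebum from a separate set of lipids.

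The Utx-cKO section held 52308 segmented cells and the WT section 40371, with 2442196 and 2645045 gene transcripts inside them. After cells under 20 transcripts had been left out, 37395 remained in Utx-cKO and 33263 in WT, with medians of 48 and 62 transcripts. Only 2 cell identifiers occurred in both sections. The highest of 20 negative control probes had 199 counts in Utx-cKO and 117 in WT, and each of the 7 genes exceeded this in both sections. Levels are given as CPM, a gene's counts scaled to a fixed total of panel transcripts in the same cells. Kdm6a itself stood at 2158 CPM in Utx-cKO epithelial cells and at 2646 in WT, a log2 ratio of -0.29 (-0.38 to -0.21). In cells called non-epithelial it stood at 2538 CPM in Utx-cKO and 2725 in WT. Transcripts of Kdm6a were thus still decoded in the Utx-cKO epithelium, and since it was not stated whether the probes lie inside the deleted part, Kdm6a does not check the labels.

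Cell classes were called per cell from marker genes that exclude the 7 genes. Basal keratinocyte-like cells (Krt5, Col17a1, Lamb3 among their leading genes) numbered 4168 in Utx-cKO and 4696 in WT, spinous keratinocyte-like cells (Krt1, Krt77, Dsc1) 2737 and 2116, and granular keratinocyte-like cells (Lor, Flg2, Casp14) 1652 and 1627. Sebocyte-like cells (Elovl3, Cidea, Elovl6) numbered 1586 in Utx-cKO and 666 in WT, and upper hair follicle-like cells (Krt79, Gata6, Krt17) 2539 and 1057. With a small lower hair follicle-like class they made up 12954 epithelial cells in Utx-cKO and 10427 in WT. The mix differed between sections. Sebocyte-like cells were 12.2% of epithelial cells in Utx-cKO and 6.39% in WT, and upper hair follicle-like cells 19.6% and 10.1%. Each section consisted of 4 separate strips of tissue, which are not replicates. The sebocyte-like share ranged over the strips from 7.90% to 16.2% in Utx-cKO and from 4.67% to 8.38% in WT, so the ranges overlapped.

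Upstream sequence was available for 5 of the 7 genes in RefSeq's table for GRCm38.p6. The 250 bases before the start site are shown for a pair highest in sebocyte-like cells (Cers4, Acer1) and a pair highest in granular keratinocyte-like cells (Alox12b, Sdr9c7). Capitals mark matches on either strand to 6 motifs.
Cers4 (chr8:4493155-4493404, + strand): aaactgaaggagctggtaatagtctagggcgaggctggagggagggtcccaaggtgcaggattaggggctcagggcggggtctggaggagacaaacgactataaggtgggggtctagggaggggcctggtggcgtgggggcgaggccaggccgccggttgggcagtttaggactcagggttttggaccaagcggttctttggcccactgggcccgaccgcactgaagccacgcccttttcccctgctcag
Acer1 (chr17:56982127-56982376, - strand): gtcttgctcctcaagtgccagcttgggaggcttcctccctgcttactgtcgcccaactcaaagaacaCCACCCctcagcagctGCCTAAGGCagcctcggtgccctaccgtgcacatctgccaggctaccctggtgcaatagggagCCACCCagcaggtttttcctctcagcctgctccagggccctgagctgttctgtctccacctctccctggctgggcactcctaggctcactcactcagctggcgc
Alox12b (chr11:69156822-69157071, + strand): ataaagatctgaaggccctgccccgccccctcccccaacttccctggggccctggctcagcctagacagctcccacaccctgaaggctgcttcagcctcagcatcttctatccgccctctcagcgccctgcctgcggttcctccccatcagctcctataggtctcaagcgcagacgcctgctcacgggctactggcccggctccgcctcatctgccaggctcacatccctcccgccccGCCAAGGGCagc
Sdr9c7 (chr10:127898285-127898534, + strand): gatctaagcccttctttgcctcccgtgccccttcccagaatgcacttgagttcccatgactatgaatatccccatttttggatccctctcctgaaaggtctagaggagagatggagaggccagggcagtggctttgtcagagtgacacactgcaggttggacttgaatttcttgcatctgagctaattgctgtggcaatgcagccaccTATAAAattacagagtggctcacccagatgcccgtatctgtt
Acer1 held a match to the Tfap2 motif GCCNNNGGC and 2 matches to the Klf4 motif CCACCC, and Alox12b held a Tfap2 match that begins 12 bases before its start. The Tfap2 motif stood in 13.7% and the Klf4 motif in 28.1% of all 32851 promoter stretches of this length. Sdr9c7 held a TATA box (TATAAA) 42 bases before its start, a motif found in 12.4% of the stretches. Cers4 and Abca12 held none of the motifs searched, which also took in AACCGGTT for Grhl3, TGANTCA for AP-1 and CACGTG for E-boxes. None of the motifs overlapped another where matched. Aloxe3 and Alox12b are direct neighbours on chromosome 11 in that assembly, and Alox8 follows Alox12b.

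The 7 genes fell into those highest in the sebaceous gland and those highest at the top of the epidermis, in the same way in both sections. Fa2h, Cers4 and Acer1 reached their highest level among 5 epithelial classes in sebocyte-like cells, and Abca12, Alox12b, Aloxe3 and Sdr9c7 in granular keratinocyte-like cells. Of 402 genes compared, 12.7% were highest in sebocyte-like and 9.95% in granular keratinocyte-like cells of both sections. The leading site of Fa2h and Cers4 was thus the gland, and that of 4 genes the granular layer. Acer1 was also found in spinous keratinocyte-like cells, as given below. Each gene has its own probes, so levels are compared between cells and not between genes. A lower level in a class can mean fewer positive cells or less RNA per cell, which these sums cannot tell apart.

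**Figure D1:**
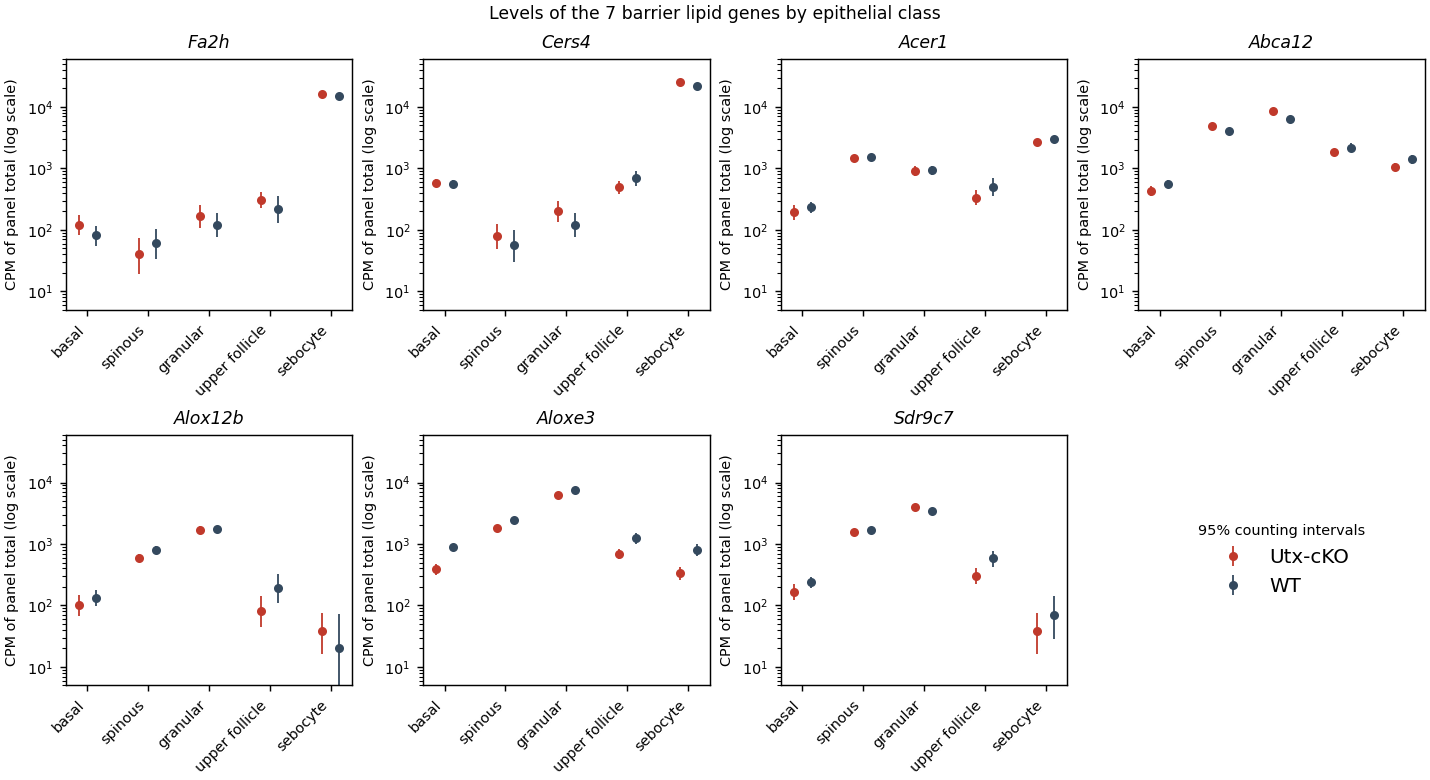
Level of each gene in 5 epithelial classes, in CPM of the panel total on a log axis, with Utx-cKO left of WT in each class and exact 95% counting intervals. Fa2h, Cers4 and Acer1 peak in sebocyte-like cells and the other 4 genes in granular keratinocyte-like cells in both sections.

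Fa2h stood at 16297 CPM in Utx-cKO sebocyte-like cells (15754 to 16853) and at 15008 in WT (14257 to 15789). The next of the 5 epithelial classes, upper hair follicle-like cells, had 311 CPM in Utx-cKO and 220 in WT, so that sebocyte-like cells exceeded it 52.5-fold in Utx-cKO and 68.2-fold in WT. In basal, spinous and granular keratinocyte-like cells Fa2h lay between 40.5 and 168 CPM in Utx-cKO and between 61.9 and 122 CPM in WT, no higher than the 204 and 127 CPM of fibroblast-like cells. Not all classes outside the epithelial ones are listed here for Fa2h. Of these, lipid-rich cells had 5652 CPM in Utx-cKO and 2453 in WT. Lipid-rich cells score as sebocytes but hold fewer than 2 transcripts of Cidea and Elovl3 together. The spinous level lay below the basal and granular ones in Utx-cKO, while in WT all 3 intervals overlapped.

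Cers4 stood at 25388 CPM in Utx-cKO sebocyte-like cells (24710 to 26080) and at 22216 in WT (21299 to 23162). That was 43.4-fold above the next of the 5 epithelial classes in Utx-cKO and 32.4-fold in WT. Outside these classes, lipid-rich cells had 10999 CPM in Utx-cKO and 4605 in WT, T and NK cell-like cells 2456 and 1664 CPM, and endothelial-like cells 1610 and 1473 CPM. Pericyte and smooth muscle-like cells had 1953 CPM in Utx-cKO and 1147 in WT, and melanocyte-like cells 2397 and 1437 CPM from 25 and 26 counts. Basal keratinocyte-like cells had 585 CPM in Utx-cKO and 568 in WT, more than the 81.0 and 57.4 CPM of spinous keratinocyte-like cells, with intervals that did not meet. Among the 3 epidermal layers Cers4 was therefore highest in the basal one, the reverse of the granular genes. Fibroblast-like cells had 705 CPM in Utx-cKO and 699 in WT.

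Acer1 had a second site in the epidermis. It stood at 2707 CPM in Utx-cKO sebocyte-like cells (2489 to 2940) and at 3046 in WT (2713 to 3409). Spinous keratinocyte-like cells had 1503 CPM in Utx-cKO and 1529 in WT, above the granular keratinocyte-like cells, which had 908 and 927 CPM. Basal keratinocyte-like cells had 194 CPM in Utx-cKO and 231 in WT. The spinous level exceeded the basal one 7.76-fold in Utx-cKO and 6.61-fold in WT.

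Abca12 already stood high in the spinous layer. It was at 429 CPM in basal, 4929 in spinous and 8652 in granular keratinocyte-like cells of Utx-cKO, and 558, 4096 and 6411 CPM in WT. The step from spinous to granular was 1.76-fold in Utx-cKO and 1.57-fold in WT, the smallest among the 4 granular genes in both sections. Upper hair follicle-like cells had 1876 CPM in Utx-cKO and 2189 in WT, and sebocyte-like cells 1060 and 1417 CPM.

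The lipoxygenases and Sdr9c7 rose later. Alox12b stood at 103, 595 and 1720 CPM in basal, spinous and granular keratinocyte-like cells of Utx-cKO and at 134, 786 and 1759 CPM in WT. Aloxe3 stood at 387, 1819 and 6361 CPM in these classes of Utx-cKO and at 897, 2479 and 7448 CPM in WT, and its granular level exceeded the spinous one 3.50-fold in Utx-cKO and 3.00-fold in WT. Sdr9c7 stood at 167, 1576 and 3967 CPM in Utx-cKO and at 237, 1714 and 3447 CPM in WT. All 3 climbed at each layer with intervals that did not meet. In sebocyte-like cells Alox12b and Sdr9c7 had 8 counts each in Utx-cKO and 2 and 7 counts in WT, too few for a level, although these cells were the deepest class with medians of 120 transcripts in Utx-cKO and 134.5 in WT.

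Where the transcripts lay follows from these levels and from the number of cells in each class. Sebocyte-like cells held 78.0% of the Fa2h transcripts of all kept cells in Utx-cKO and 68.2% in WT. For Cers4 they held 69.0% in Utx-cKO and 51.2% in WT, and for Acer1 39.8% and 26.4%. Spinous keratinocyte-like cells held 26.0% of Acer1 in Utx-cKO and 30.2% in WT, in WT more than the sebocyte-like cells. The lipid-rich cells held another 8.87% and 10.8% of Fa2h and 9.80% and 10.3% of Cers4. Granular keratinocyte-like cells held 34.0% of Abca12 in Utx-cKO and 37.7% in WT. Spinous keratinocyte-like cells held 35.0% and 30.3% of it, in Utx-cKO slightly more than the granular ones. Of Alox12b, Aloxe3 and Sdr9c7, granular keratinocyte-like cells held 41.1% to 44.5% in Utx-cKO against 45.5% to 46.5% in WT. Cells with no call held between 7.41% and 15.4% of each gene's transcripts, below the 29.2% in Utx-cKO and 28.0% in WT of all panel transcripts.

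**Figure D2:**
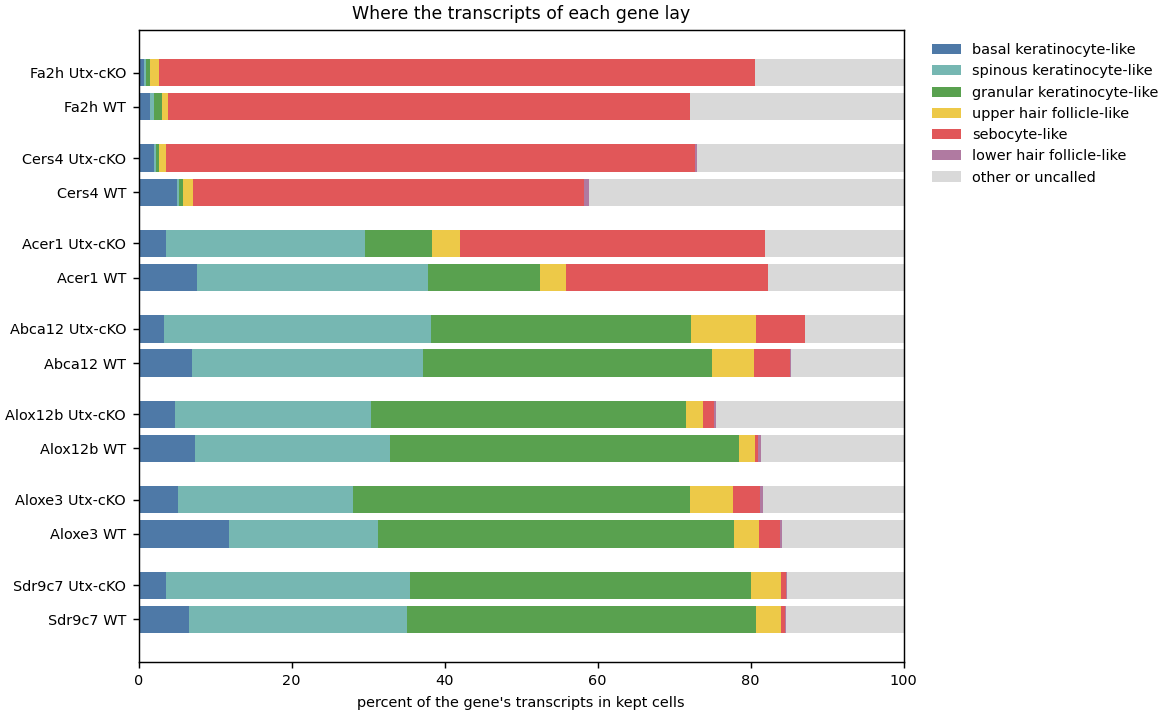
Percent of each gene's transcripts in kept cells that lay in each epithelial class, with other and uncalled cells in grey and the Utx-cKO bar above the WT bar for every gene. Most Fa2h and Cers4 transcripts lay in sebocyte-like cells, whose part was larger in Utx-cKO (78.0% and 69.0%) than in WT (68.2% and 51.2%).

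Levels were also taken by distance from the nearest granular keratinocyte-like cell, over all other epithelial cells. Each distance bin pooled the classes without holding their mix fixed, so distance and class cannot be told apart here. Abca12 fell with each step, to 562 CPM at 80 to 160 µm against 3675 CPM within 10 µm in Utx-cKO, and to 330 against 2779 CPM in WT. Aloxe3 had 1366 CPM within 10 µm and 311 CPM at 80 to 160 µm in Utx-cKO, and 2094 and 584 CPM in WT. Sdr9c7 had 1032 and 83.5 CPM in these bins of Utx-cKO, and 1109 and 84.7 CPM in WT. The 4 genes that were highest in granular keratinocyte-like cells were highest within 10 µm of them in both sections, and so were 20.4% of all 402 genes. The count of 4 became 0 when granular cells were taken from Leiden clusters, whose granular cluster held 63.5% spinous keratinocyte-like cells in Utx-cKO and 55.9% in WT. The granular marker Flg2 moved the same way, at 15345 and 1025 CPM in Utx-cKO and 17859 and 1149 CPM in WT. What part transcripts assigned across cell borders had in this was not tested. Fa2h and Cers4 were lowest within 10 µm, and Acer1 showed no steady trend: within 10 µm and at 80 to 160 µm it had 1091 and 1169 CPM in Utx-cKO and 1053 and 847 CPM in WT.

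**Figure D3:**
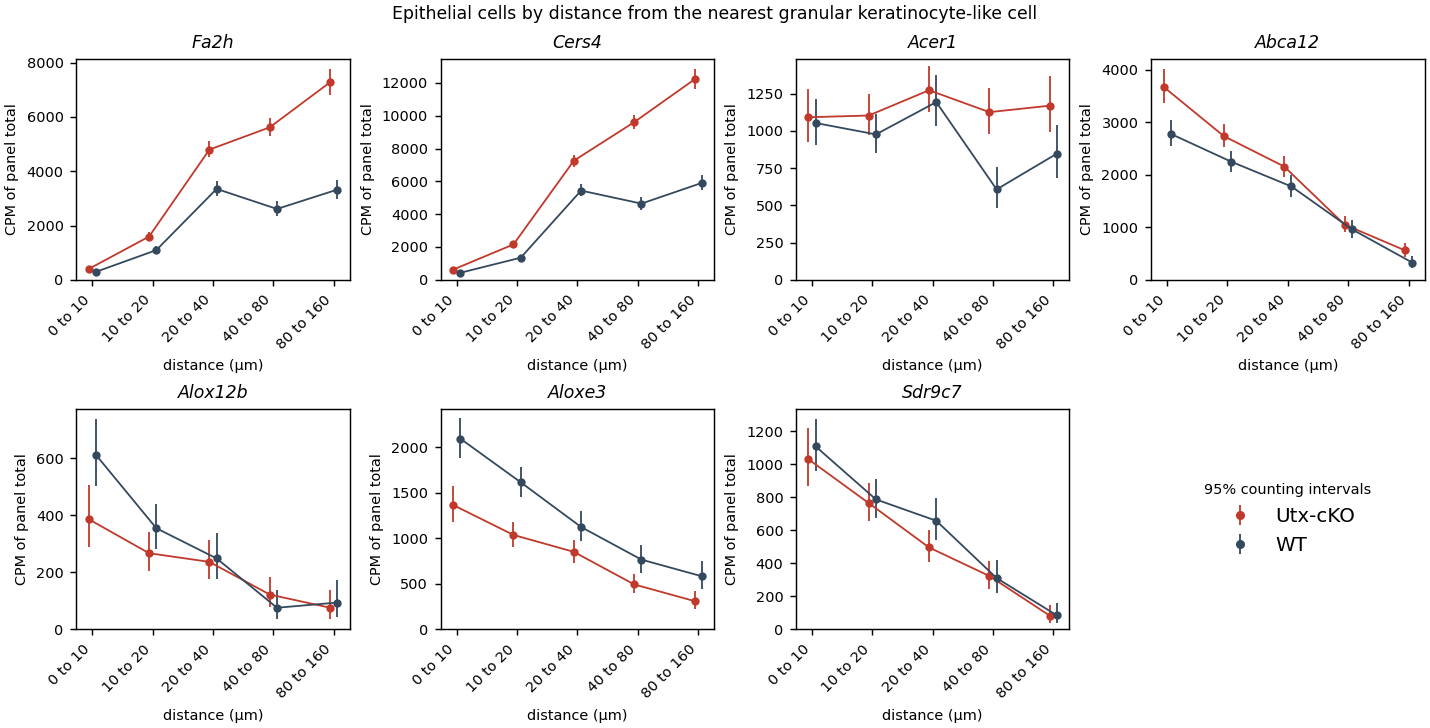
Level of each gene, in CPM of the panel total, in epithelial cells other than granular keratinocyte-like cells, by distance in µm from the nearest of those cells; lines are Utx-cKO and WT with exact 95% counting intervals. Abca12, Alox12b, Aloxe3 and Sdr9c7 are highest within 10 µm, while Fa2h and Cers4 are lowest there. Classes are pooled at each distance. With granular cells taken from Leiden clusters, 0 of the 4 were highest within 10 µm.

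The rise of Fa2h and Cers4 with distance held inside the sebocyte-like class alone. Sebocyte-like cells within 10 µm of a granular keratinocyte-like cell had 6135 CPM of Fa2h in Utx-cKO (4273 to 8532) and 4844 in WT (3374 to 6736), from 44 and 43 cells. At 80 to 160 µm they had 19381 CPM in Utx-cKO (18169 to 20652) and 20220 in WT (18148 to 22464). Cers4 had 9290 and 31270 CPM in these bins of Utx-cKO, and 6228 and 30767 CPM in WT. The intervals of the near and far bins did not meet in either section. Abca12 ran against them inside the same class, at 2980 and 794 CPM in Utx-cKO and 3045 and 641 CPM in WT. Krt5, a basal keratin, fell along with it in sebocyte-like cells, at 7713 and 1710 CPM in Utx-cKO and 6919 and 3613 CPM in WT.

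Seen as shares of cells, with each cell thinned to 20 transcripts to even out depth, Fa2h was detected in 25.7% of Utx-cKO sebocyte-like cells (23.6% to 28.0%) and in 25.4% in WT (22.1% to 28.9%). Without thinning the shares were 71.1% and 71.0%. Cers4 was detected in 36.3% of thinned Utx-cKO sebocyte-like cells and in 34.1% in WT. In granular keratinocyte-like cells Abca12 was detected in 14.5% in Utx-cKO (12.8% to 16.3%) and 11.8% in WT (10.3% to 13.5%), and Aloxe3 in 11.3% (9.77% to 12.9%) and 13.5% (11.8% to 15.2%). For comparison, fibroblast-like cells gave 0.323% and 0.319% for Fa2h, 1.17% and 1.45% for Cers4, 0.422% and 0.221% for Abca12 and 0.447% and 0.466% for Aloxe3 at the same thinning, with medians of 53 and 71 transcripts. Utx-cKO and WT intervals overlapped for each of these genes. The Cers4 share of fibroblast-like cells is no background level, since spinous keratinocyte-like cells had 0.183% and 0.189%. In basal keratinocyte-like cells Fa2h was detected no more often than in fibroblast-like cells, at 0.264% in Utx-cKO and 0.192% in WT, while Aloxe3 was detected in 0.888% in Utx-cKO (0.626% to 1.22%) and 1.53% in WT (1.20% to 1.93%).

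The genes differed in where in the cell their transcripts lay, a measure the choice of genes did not use. Of Aloxe3 transcripts in granular keratinocyte-like cells, 69.2% lay over the nucleus in Utx-cKO (66.0% to 72.2%) and 64.8% in WT (62.2% to 67.4%). The median gene of this class had 46.3% in Utx-cKO and 48.5% in WT, and Aloxe3 ranked 5 of 180 and 15 of 197 genes. Its neighbour on the chromosome, Alox12b, had 39.6% there in Utx-cKO (33.3% to 46.1%) and 40.4% in WT (34.9% to 46.0%), with no overlap with Aloxe3. In spinous keratinocyte-like cells Aloxe3 ranked lower, 97 of 212 genes in Utx-cKO and 52 of 208 in WT. There Sdr9c7 had 27.8% over the nucleus in Utx-cKO and 32.7% in WT, against medians of 51.0% in both, while in granular keratinocyte-like cells it had 48.7% and 41.1%. Fa2h in sebocyte-like cells had 34.7% in Utx-cKO and 36.3% in WT, below the medians of 45.8% and 42.0%. It ranked 127 of 166 and 88 of 124 genes, and all transcripts of this class together had 37.1% and 38.6%, near the Fa2h values.

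Over all epithelial cells, Fa2h and Cers4 were higher and Aloxe3 was lower in Utx-cKO, and the other 4 genes did not reach 1.5-fold. Fa2h stood at 1812, 3184, 4207 and 4075 CPM in the 4 Utx-cKO strips and at 1377, 1677, 1672 and 1701 CPM in the WT strips. The lowest Utx-cKO strip exceeded the highest WT strip by little, and the other 3 by far. The sections as a whole had 3399 CPM in Utx-cKO and 1595 in WT, a 2.13-fold difference (log2 1.09, 1.01 to 1.18). Cers4 stood at 3986, 5762, 5887 and 6145 CPM in the Utx-cKO strips and at 2597, 3486, 2572 and 2135 CPM in the WT strips, again without overlap. It had 5414 CPM in Utx-cKO and 2572 in WT, a 2.10-fold difference (log2 1.07, 1.01 to 1.14). The count of 2 of 7 genes higher stands beside 12.2% of 402 genes, and 3.48% of genes had strips apart in this direction. The median log2 ratio was 0.15 over the 7 genes and 0.06 over all 402. Of these, 49 were higher and 21 lower by CPM, against 25 and 54 as mean counts per cell.

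The share of sebocyte-like cells was also higher in Utx-cKO. Over the Utx-cKO strips Fa2h ranked as this share did, from strip 1 (7.90%, 1812 CPM) up to strip 3 (16.2%, 4207 CPM). Over the WT strips Fa2h did not follow the share, as strip 4 had the lowest, 4.67%, and the highest Fa2h level, 1701 CPM. With each class set to the same share in both sections, the log2 ratio was 0.13 for Fa2h and 0.17 for Cers4. Without sebocyte-like cells it was -0.056 for Cers4 (-0.29 to 0.17). Fa2h then had 114 counts in Utx-cKO and 85 in WT (log2 0.53, 0.11 to 0.95), under the 200 in all needed for a call. Within sebocyte-like cells the log2 ratio was 0.12 for Fa2h (0.03 to 0.21) and 0.19 for Cers4 (0.12 to 0.26), and the strips overlapped. Fa2h ranged from 14189 to 20255 CPM over the Utx-cKO strips and from 12405 to 26788 CPM over the WT strips, where strip 4 alone exceeded every Utx-cKO strip. Cers4 ranged from 21445 to 29893 CPM in Utx-cKO and from 18367 to 29948 CPM in WT. Per sebocyte-like cell there were 2.15 Fa2h transcripts in Utx-cKO and 2.24 in WT, and 3.35 and 3.32 of Cers4.

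**Figure D4:**
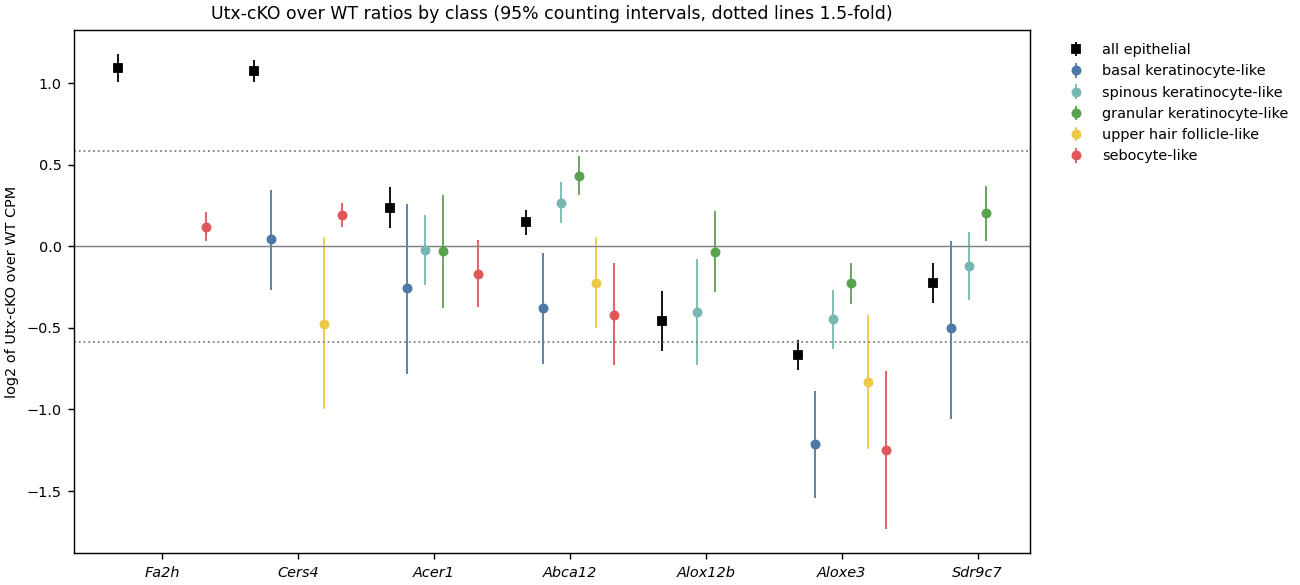
Log2 of Utx-cKO over WT levels for each gene over all epithelial cells (squares) and in each class with at least 100 counts (circles), with exact 95% counting intervals and dotted lines at 1.5-fold. Fa2h and Cers4 lie above 1 over all epithelial cells and near 0 in sebocyte-like cells, and Aloxe3 lies below 0 in every class shown.

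The lipid-rich cells had both genes higher in Utx-cKO. Fa2h had 5652 CPM there in Utx-cKO and 2453 in WT (log2 1.20, 0.97 to 1.44), and Cers4 had 10999 and 4605 CPM (log2 1.26, 1.09 to 1.43). This class held 974 cells in Utx-cKO and 1191 in WT. Ptger3, a gene of the adipocyte list, stood there at 1690 CPM in Utx-cKO and 3160 in WT. The sebocyte markers that the rule limits to 1 transcript per cell differed in the other direction: Cidea had 3278 CPM in Utx-cKO and 1185 in WT (log2 1.47, 1.14 to 1.81), and Elovl3 had 1369 and 717 CPM (log2 0.93, 0.47 to 1.40). Their part in the Fa2h and Cers4 differences was not tested.

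Aloxe3 was the gene of the set that was lower in Utx-cKO. Over all epithelial cells it stood at 1440, 1576, 1700 and 1409 CPM in the Utx-cKO strips and at 1665, 1852, 3420 and 2053 CPM in the WT strips. Strip 3 of WT was far above the rest, and the lowest WT strip lay below the highest Utx-cKO strip. The sections had 1548 CPM in Utx-cKO and 2452 in WT, 1.58-fold lower in Utx-cKO (log2 -0.66, -0.76 to -0.57). It was 1 of 7 genes lower, beside 5.22% of 402 genes. Of decoded Aloxe3 transcripts, 66.9% reached a quality score of 20 in Utx-cKO and 73.1% in WT. Over all genes these shares were 78.4% and 80.4%. What part this had in the Aloxe3 difference was not tested. Without WT strip 3 the log2 ratio was -0.26, which is short of 1.5-fold, and it was -0.45 with equal class shares, -0.53 after thinning and -0.18 over all transcripts of the sections. Alox12b had 416 CPM in Utx-cKO and 572 in WT (log2 -0.46, -0.64 to -0.28). Without WT strip 1 it passed the rule as well.

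In granular keratinocyte-like cells, where both lipoxygenases were highest, none of the 5 genes compared was 1.5-fold lower in Utx-cKO, beside 8.06% of 248 genes, and none was higher, beside 12.9%. Aloxe3 had 6361 CPM in Utx-cKO (5945 to 6798) and 7448 in WT (7055 to 7858), with strips between 4547 and 10069 CPM in Utx-cKO and between 5471 and 10078 CPM in WT. Abca12 had 8652 CPM in Utx-cKO and 6411 in WT (log2 0.43, 0.31 to 0.55), with strips between 7676 and 10652 CPM in Utx-cKO and between 5874 and 7819 CPM in WT, which overlapped narrowly. As counts per cell Abca12 was level, at 0.715 in Utx-cKO and 0.710 in WT, and Aloxe3 had 0.526 and 0.825, which passes 1.5-fold. By this measure 82 of the 248 genes were at least 1.5-fold lower and 13 higher, and the median log2 ratio was -0.42. Cells of this class had a median of 70 transcripts in Utx-cKO and 98 in WT. Sdr9c7 had 3967 CPM in Utx-cKO and 3447 in WT, Alox12b 1720 and 1759 CPM, and Acer1 908 and 927 CPM. In spinous keratinocyte-like cells also 0 of 5 genes were 1.5-fold lower and 0 higher, beside 6.79% and 8.3% of 265 genes, and log2 ratios ran from -0.45 for Aloxe3 to 0.27 for Abca12.

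Larger ratios of Aloxe3 were found where its level was low. In basal keratinocyte-like cells it had 387 CPM in Utx-cKO and 897 in WT, from 102 and 341 counts (log2 -1.21, -1.55 to -0.89), the only 1 of 5 genes lower there, beside 8.43% of 332 genes. The strips had 329, 185, 538 and 327 CPM in Utx-cKO and 512, 325, 1407 and 815 CPM in WT, so strips 1 and 2 of WT lay below the highest Utx-cKO strip. Without WT strip 3 the log2 ratio was -0.59. Within 10 µm of granular keratinocyte-like cells, basal keratinocyte-like cells had 564 CPM in Utx-cKO (300 to 964) and 1634 in WT (1334 to 1982), and at 80 to 160 µm 330 and 511 CPM with intervals that overlapped. Granular markers summed to 14807 CPM in basal keratinocyte-like cells of Utx-cKO and to 23053 in WT, and Flg2 within 10 µm to 6247 and 10264 CPM. Over the same basal keratinocyte-like cells Flg2 had 2283 CPM in Utx-cKO and 5523 in WT (log2 -1.27, -1.41 to -1.14), a difference about as large as that of Aloxe3. Their part in the Aloxe3 difference was not tested.

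In upper hair follicle-like cells Aloxe3 had 691 CPM in Utx-cKO and 1230 in WT, from 109 and 95 counts (log2 -0.83, -1.24 to -0.42). The strips had 411, 746, 1040 and 563 CPM in Utx-cKO and 1116, 1458, 1340 and 1066 CPM in WT. The strips did not overlap, and 3.52% of 256 genes were apart in this direction. Aloxe3 was 1 of 3 genes compared that was 1.5-fold lower, beside 10.5% of the 256. Without Utx-cKO strip 1 the log2 ratio was -0.49. In sebocyte-like cells Aloxe3 had 334 CPM in Utx-cKO and 794 in WT, from 70 and 79 counts (log2 -1.25, -1.73 to -0.77), the only 1 of 5 genes at least 1.5-fold apart, beside 22.1% of 199 genes. Its strips overlapped, at 228 to 416 CPM in Utx-cKO and 335 to 1067 CPM in WT. Without WT strip 3 it had a log2 ratio of -0.70 but fell under the 100 counts needed. After thinning its log2 ratio turned to 0.67, from 18 positive cells in Utx-cKO and 5 in WT.

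**Figure D5:**
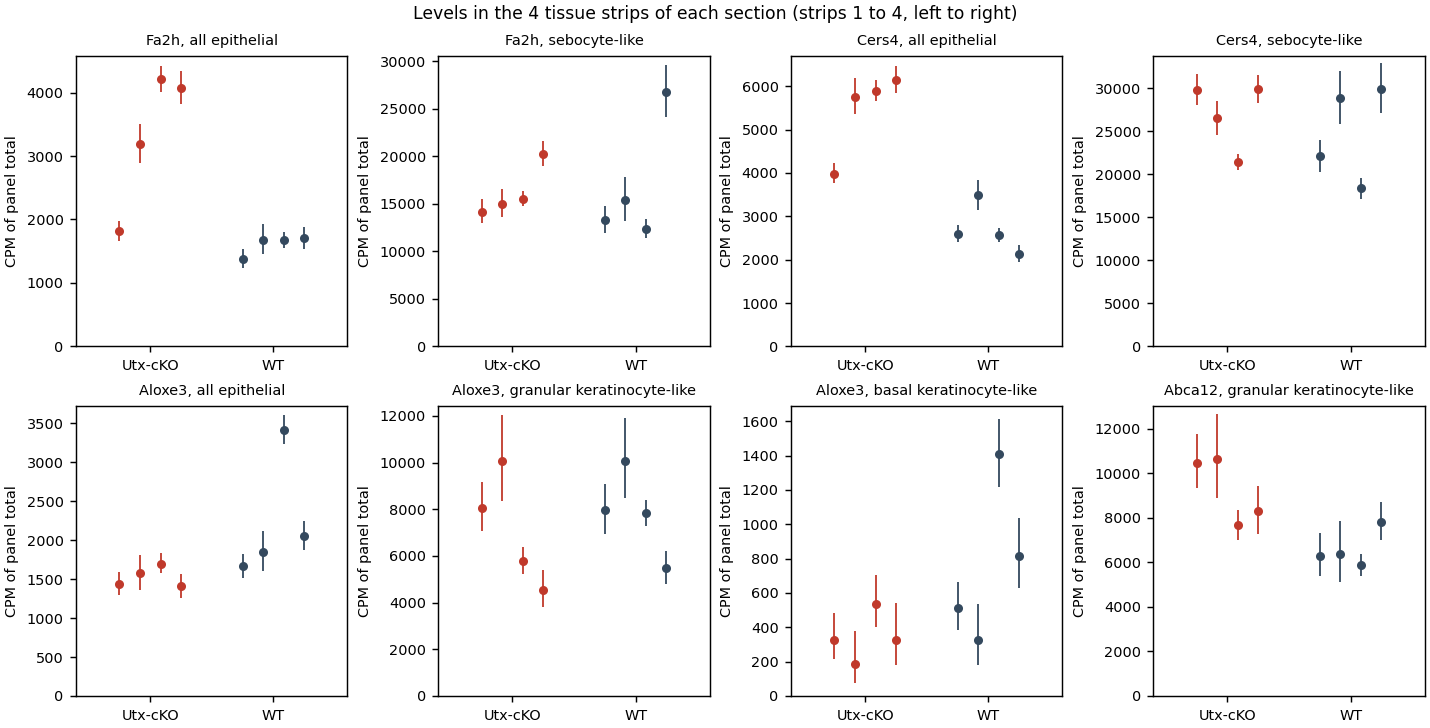
Level in CPM of the panel total in the 4 tissue strips of each section, Utx-cKO left of WT, with exact 95% counting intervals, for 8 pairs of gene and class. Fa2h and Cers4 separate over all epithelial cells and overlap in sebocyte-like cells, and WT strip 3 stands above the other strips for Aloxe3 over all epithelial cells.

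For each gene, the other genes with the most similar pattern were ranked by Pearson's r of log2(CPM + 10) over 15 classes in both sections, 30 points that share libraries and depth, among 378 genes that mark no class. Fa2h was closest to Psat1 (r = 0.82) and Cers4 to Lpcat3 (r = 0.81). Acer1 was closest to Elovl4 (r = 0.82), Abca12 to Ovol1 (r = 0.91), Alox12b to Grhl3 (r = 0.80), Aloxe3 to Cldn4 (r = 0.83) and Sdr9c7 to Calm4 (r = 0.78). The other ranked genes were Lpcat3 and Sc5d for Fa2h, Gpx4 and Agpat2 for Cers4, Prdx5 and Abca12 for Acer1, Prdx5 and Tmem45a for Abca12, Wnt3 and Aloxe3 for Alox12b, Rbp2 and Lypd3 for Aloxe3, and Grhl3 and Calm5 for Sdr9c7. Within the set r was 0.72 between Fa2h and Cers4 and 0.73 between Alox12b and Aloxe3, and -0.63 between Cers4 and Alox12b.

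Other genes of the pathway were taken from lists that leave out the 7 genes, and over all compared genes the median log2 ratio in epithelial cells was 0.06. The counts of each list stand beside 12.2% of all 402 genes higher and 5.22% lower, and nothing particular to a list is read from them. Of 8 panel genes for ceramide synthesis and turnover, 1 was at least 1.5-fold higher in Utx-cKO and 0 were lower, with a median log2 ratio of 0.24. The higher one was Elovl4, which elongates very long chain fatty acids for ceramides, at 18681 CPM in Utx-cKO and 9379 in WT (log2 0.99). Cers3, the synthase of the epidermal ultra-long ceramides, had 1040 CPM in Utx-cKO and 1340 in WT. Of 5 lipoxygenase and eicosanoid genes compared, 0 were higher and 1 was lower: Ptgds, a prostaglandin synthase, at 97.3 CPM in Utx-cKO and 247 in WT. Of 4 genes for lipid transport and activation, 1 was higher, the fatty acid transporter Slc27a4 at 3284 CPM in Utx-cKO and 2153 in WT. Them5, a thioesterase gene that also served as a granular marker, was the 1 that was lower, at 1773 and 2813 CPM. Of 12 regulators of barrier genes, 2 were higher and 0 were lower. These were Pparg, at 1555 CPM in Utx-cKO and 885 in WT, and Elf3, at 237 and 76.8 CPM from 246 and 76 counts. Within sebocyte-like cells none of Elovl4, Slc27a4 and Pparg reached 1.5-fold. Elovl4 had 73776 CPM there in Utx-cKO and 54655 in WT (log2 0.43), Slc27a4 11493 and 10626 CPM (log2 0.11), and Pparg 6842 and 7590 CPM (log2 -0.15). Klf4, Grhl3 and Ovol1, regulators of granular differentiation, had 6120, 1298 and 1150 CPM in Utx-cKO and 8214, 1103 and 1141 CPM in WT, within 1.5-fold.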

How the data were processed

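Xenium data of 1 Utx-cKO and 1 WT skin section were analysed. In the deposited files each segmented cell has its transcript counts, and each decoded transcript has a gene, a place, a cell and a quality score. Recounting transcripts at a score of 20 or more gave the deposited counts in all cells. Decoding and segmentation software were not given in the sources used here.

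Cells needed 20 such transcripts. A cell took the class of its highest marker score: weighted counts of genes found in 1 list alone, less those of an average cell of that size, in standard deviations (at least 3, from at least 3 transcripts). Sebocyte-like cells also needed at least 2 Cidea or Elovl3 transcripts, a rule chosen after the data were seen. Within 1 of that score lay 2552 epithelial cells in Utx-cKO and 2069 in WT. No doublet caller was run. Spots of neighbouring cells can be assigned across borders. Counts were summed per class and scaled to the class total (CPM). Genes needed 200 counts over both sections in epithelial cells, or 100 in a class. Exact intervals were Poisson (levels), conditional binomial (ratios) or Clopper-Pearson (shares). Strips are tissue areas of at least 1000 cells linked within 60 µm, numbered by position.

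The 7 genes and all lists were chosen with earlier results of these data known. Named genes are the 7, the 3 most alike to each, listed pathway genes at least 1.5-fold apart in epithelial cells, and Kdm6a; Cers3, Klf4, Grhl3, Ovol1, Krt5, Flg2 and Ptger3 were named after their values were seen. In simulated data at these depths, 98.8% of 163 genes changed 2-fold in epithelial cells were recovered. These data held counting error alone around pooled epithelial levels, so they cannot show the effect of class mix, strips or animals. Python 3.11.15, SciPy 1.17.1 and leidenalg 0.10.2 were used.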

Additional observations from a re-analysis of the deposited data

How the results depend on the processing

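Alternatives were a quality score of 30, transcripts over the nucleus alone, cell minimums of 10 and 40 transcripts, other scales, thinning to 20 transcripts, Leiden clusters made without the 7 genes, a stricter marker score and leaving out each strip. For a score of 30 and for nuclei the class calls were kept and only the counts changed. The 4 genes highest in granular keratinocyte-like cells remained so in every alternative in which class levels were compared. Among the Leiden clusters none was named spinous keratinocyte-like, so that alternative could not set granular against spinous levels. Centred ratios, equal class shares and all transcripts of the sections gave no such comparison. The 2 genes higher over epithelial cells became 0 with equal class shares and 0 without sebocyte-like cells (Cers4 then -0.056 on the log2 scale), and stayed at 2 or 3 otherwise. The 1 gene lower over epithelial cells became 2 as mean counts per cell and without WT strip 1 (Alox12b besides Aloxe3). It became 0 after thinning, without WT strip 3, with equal class shares, without sebocyte-like cells and over all transcripts of the sections. In granular keratinocyte-like cells 1 gene, Aloxe3, was lower as mean counts per cell, beside 82 of all 248 genes compared there. In sebocyte-like cells the count of 1 became 3 at a score of 30, 2 as mean counts per cell, 0 after thinning, 0 without WT strip 3 (Aloxe3 then had under 100 counts in both) and 3 with the lipid-rich cells added; after thinning Aloxe3 had a log2 ratio of 0.67, from 18 and 5 cells. The count of 4 genes highest within 10 µm became 0 with the Leiden clusters, whose granular cluster took in cells called spinous keratinocyte-like one by one (63.5% of it in Utx-cKO and 55.9% in WT). As mean counts per cell 25 epithelial genes were higher and 54 lower, against 49 and 21 by CPM, and the median log2 ratio was -0.18 in place of 0.06. Of single ratios, 228 stayed within their counting interval and 91 moved out of it under these settings. Another 2, at least 1.5-fold apart at first, turned sign. A turn of sign was counted only for such ratios, so smaller ones that changed sign are among the 228 or the 91. Leaving out a strip kept 207 and moved 33. Leaving out sebocyte-like cells and adding lipid-rich cells were chosen after seeing the data. No paired analysis was possible because each genotype had 1 section. Depth limits the classes under 100 counts, and intervals leave out differences between animals.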
